A study of Mus musculus with 43 samples.

Results

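The nuclear genes of the mitochondrial respiratory chain were examined in mouse embryonic stem cells labelled as a knockout of the Polycomb gene Mtf2. Members were taken by gene symbol, as every gene of the authors' deposited table whose name begins with Ndufa, Ndufb, Ndufc, Ndufs, Ndufv, Uqcr, Atp5, Cox4, Cox5, Cox6, Cox7 or Cox8, together with Sdha to Sdhd and Cyc1. The rule found 94 members among 22462 genes, of which 90 were tested by the authors. They comprised 36 genes of complex I, 4 of complex II, 9 of complex III, 20 of complex IV and 15 of complex V, and 10 that match by their letters but encode assembly factors or related proteins. Ndufa4 and Ndufa4l2 were counted with complex IV, where the Ndufa4 protein is known to sit.

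The series compared MTF2 knockout cells with control cells of E14 (ES-E14TG2a), a line of mouse embryonic stem cells of male origin, kept in medium with serum and LIF on gelatin. The RNA-seq data came from 3 libraries of MTF2 KO cells and 3 libraries of Control cells, made from polyadenylated RNA. ChIP-seq samples of the same cells, and of knockout cells that carry wild-type MTF2 or the K339A mutant, were not analysed here. The labels used here do not say how the knockout was made or how many clones it represents. The authors' table gives 1 pooled FPKM value (fragments scaled to transcript length and library size) for each gene and group, so no value can be given per library, no SD is possible, and the depth per library is unknown. A gene is called here when the authors' Cuffdiff q is at or under 0.05. The log2 ratio throughout is knockout over control after adding 0.5 to each FPKM value, which understates changes of low genes.

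The respiratory chain carries electrons from NADH (complex I) and succinate (complex II) through ubiquinone to complex III, and from there by cytochrome c to complex IV, which reduces oxygen. Complexes I, III and IV pump protons, and complex V, the ATP synthase, uses the gradient to make ATP. Most subunits are encoded in the nucleus and imported, while a small set of core subunits of complexes I, III, IV and V is encoded by mitochondrial DNA, so the assembled complexes draw on both genomes. Naive embryonic stem cells are known to respire and also to use glycolysis.

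The targeted gene, Mtf2, fell to 44.7 FPKM in knockout cells, against 74.3 FPKM in control cells, 60.2% of the control level (Cuffdiff q = 0.0496 in the authors' deposited table). The labels do not state which part of the gene was changed, so RNA from an unchanged part cannot be told from intact RNA. Markers of the labelled cell type were present in both groups: 14 pluripotency genes summed to 5821 FPKM in knockout and 6005 FPKM in control cells, and 2 rose and 1 fell among 13 tested. Of 12 primitive endoderm markers, 10 rose, 0 fell and 2 were not called, and their sum was 1579 FPKM in knockout and 236 FPKM in control cells, with none at 0. Of 10 fibroblast markers 3 were tested and 0 called, their sum was 17.2 FPKM in knockout and 9.77 FPKM in control cells, and Col3a1, Twist2 and Dcn were at 0 in both groups. The part of the primitive endoderm gain in the results below was not tested. In pooled bulk RNA, fewer cells of a type and less RNA per cell cannot be told apart. The q values rest on the spread that Cuffdiff estimated over libraries that the study describes as biological replicates.

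Respiratory chain genes leaned lower in the knockout. Of the 90 tested members, 12 fell (13.3%), 4 rose (4.44%) and 74 were not called, where 6.03% of all 11362 tested genes fell, 6.9% rose and 12.9% were called in either direction. The members' median log2 ratio was -0.31, with quartiles of -0.58 and 0.06, against a median of -0.0035 over all tested genes. The ratio was below 0 in 63 members and above 0 in 27, and 50.2% of all tested genes were below 0. Most members are highly expressed, and high genes as a whole leaned the same way: among 1994 tested genes with a mean FPKM of 50 or more, 20.3% were called, 13.5% fell, 6.82% rose and the median log2 ratio was -0.20. Above that same level, 12 of 64 members fell (18.8%) and 3 rose (4.69%), with a median of -0.33. The members' lower calls therefore stood above the share in all genes and closer to the share in genes of like level, and no test of that difference was made. With a normal p-value computed from the deposited test score in place of the deposited p, 2 members, Ndufa13 and Cox6b2, were called lower and 0 higher, and over all tested genes 29 were called lower and 95 higher. With FPKM rescaled to the same sum in both groups, the median of all tested genes moved up by 0.14 to 0.14 and the members' median to -0.16, with 56 members below 0.

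Summed over all members, FPKM was 19397 in knockout and 24934 in control cells, which is 3.84% of the knockout total and 4.46% of the control total. By complex, the sum in knockout cells was 69.6% of control for complex I, 78.5% for complex II, 79.2% for complex III, 76.8% for complex IV and 92.7% for complex V. These sums are descriptions and rest partly on single genes: Cox6b1 alone held 43.4% of the complex IV sum in control cells. Atp5b alone held 21.0% of the complex V sum in control cells. The median log2 ratio of complex V was -0.31, close to those of complexes I (-0.32) and IV (-0.31), and 10 of its 14 tested genes were below 0. Just above the threshold lay 6 further members with a q over 0.05 and up to 0.1, and all 6 had ratios below 0: Cyc1, Ndufb8, Uqcr10, Cox6a1, Ndufb9 and Ndufa11. These were 6.67% of the tested members, where 2.83% of all tested genes lay in that range with a ratio below 0 and 2.50% with one above 0. Among tested genes with a mean FPKM of 50 or more, 5.37% lay there below 0 and 1.55% above, beside 5 (7.81%) and 0 of the members at that level.

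**Figure D1:**
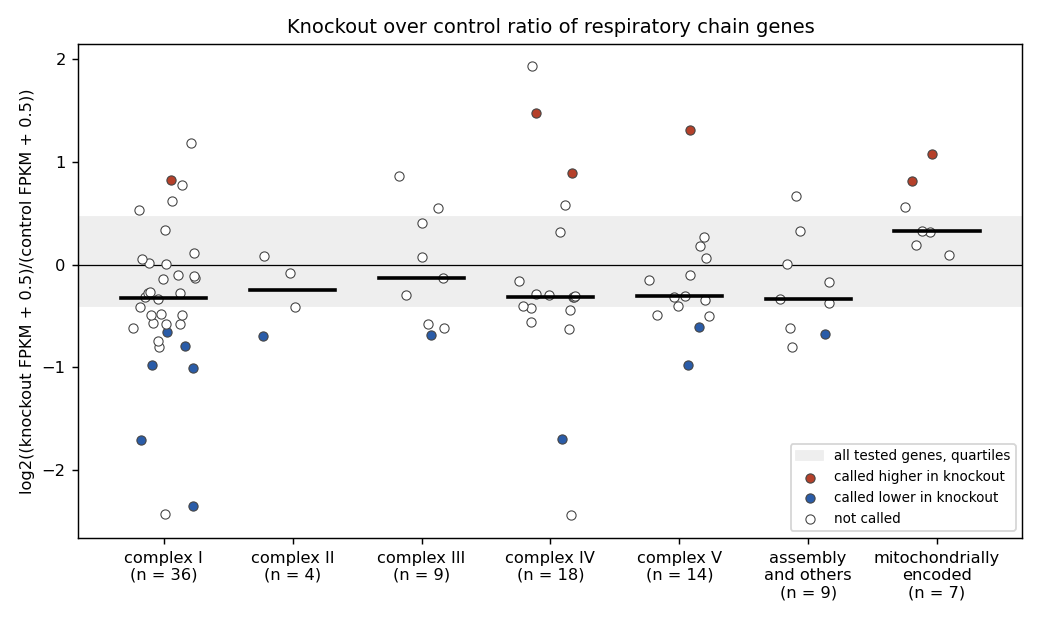
Log2 ratio of knockout over control FPKM (0.5 added to each) for every tested member, by complex, and for tested genes of mitochondrial DNA. Points are genes, filled where the authors called them, bars are medians, and the grey band spans the quartiles of all tested genes. The points at the foot of complexes I and IV are Ndufs5 and Cox6a2, listed at 0 in knockout cells. Medians of the nuclear groups lie between -0.34 and -0.13, while the 7 mitochondrially encoded genes lie above 0.

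Promoters of these genes are known for binding sites of the activators NRF1, GABP (an ETS family factor) and YY1. Sequence windows of 300 bases, from 250 before to 50 after the start (RefSeq, GRCm38.p6), were matched for 77 of the 94 members, 74 by symbol and 3 by an older symbol. A gene was counted when any of its windows held the motif on either strand. The palindromic NRF1 core, whose letters stand in capitals in the stretches below, was found in 7 of 77 members (9.09%), against 2.37% of 8717 tested genes and 1.47% of 17492 protein-coding genes with a window. The YY1 core AAGATGG was found in 13 members (16.9%), against 8.89% of tested genes. In most of these 13 a match lay after the start, inside the transcribed part, and positions in other tested genes were not counted. The share therefore does not describe sites before the start alone. The shorter NRF1 word TGCGCA, which can overlap the NRF1 core, was found in 19 members (24.7%) against 16.9%. For the GABP core CCGGAAG the shares were close, 18 members (23.4%) against 21.3% of tested genes, and for the CCAAT box they were 35 members (45.5%) against 43.4%. MTF2 is known to bind unmethylated CpG-rich DNA, and a ratio of observed to expected CpG of 0.6 or more was found in 64 members (83.1%), 80.0% of tested genes and 50.9% of protein-coding genes. Matches are letters in a window and not measured binding.

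**Figure D2:**
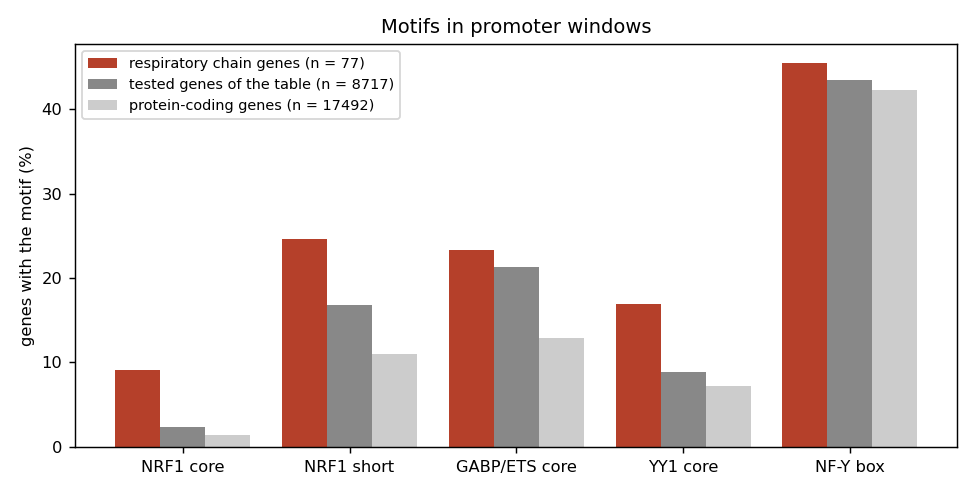
Share of genes, in percent, whose promoter windows hold each motif, for respiratory chain genes (n = 77), tested genes of the table (n = 8717) and protein-coding genes (n = 17492). NRF1 short is the shorter NRF1 word and the NF-Y box is the CCAAT box. The ratio of members to tested genes is highest for the NRF1 core (9.09% of members and 2.37% of tested genes), followed by the YY1 core (16.9% of members and 8.89% of tested genes).

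In 5 members the NRF1 core lay before the start. These stretches are shown because the core is the motif for which the ratio of the members' share to that of tested genes was highest, with the core in capitals, each read 5′ to 3′ on the strand of the gene. None of the 5 was called, and Atp5g2 was not tested.
Atp5g2, chr15:102671055-102671114, minus strand: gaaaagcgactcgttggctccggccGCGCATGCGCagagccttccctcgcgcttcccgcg
Atp5k, chr5:108434415-108434474, minus strand: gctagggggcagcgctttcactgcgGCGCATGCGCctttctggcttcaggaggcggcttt
Cox6a1, chr5:115349086-115349145, minus strand: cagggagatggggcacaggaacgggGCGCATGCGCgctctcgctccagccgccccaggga
Ndufa11, chr17:56717677-56717736, plus strand: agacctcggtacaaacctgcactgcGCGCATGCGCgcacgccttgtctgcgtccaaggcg
Ndufaf4, chr4:24897945-24898004, plus strand: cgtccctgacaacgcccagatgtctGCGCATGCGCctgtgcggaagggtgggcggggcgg
Counted from the start, the core began at position -42 in Atp5g2, -50 in Atp5k, -60 in Ndufa11, -113 in Ndufaf4 and -162 in Cox6a1. In Ndufaf5 and Uqcrc1 it lay after the start.

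The 100 bases before the start are shown for Ndufa13 and Cox6b2, the called members with the lowest ratios in complexes I and IV, and for Cox5b and Atp5h, those with the highest ratios in complexes IV and V. Capitals mark matches to the NRF1 core or its shorter word, the GABP core and the YY1 core on either strand.
Ndufa13, chr8:69902021-69902120, minus strand: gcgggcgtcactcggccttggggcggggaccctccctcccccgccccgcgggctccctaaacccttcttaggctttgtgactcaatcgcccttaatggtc
Cox6b2, chr7:4753095-4753194, minus strand: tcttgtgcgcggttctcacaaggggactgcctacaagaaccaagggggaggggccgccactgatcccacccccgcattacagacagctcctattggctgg
Cox5b, chr1:36691387-36691486, plus strand: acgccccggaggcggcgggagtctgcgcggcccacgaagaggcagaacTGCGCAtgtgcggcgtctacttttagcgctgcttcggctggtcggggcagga
Atp5h, chr11:115419920-115420019, minus strand: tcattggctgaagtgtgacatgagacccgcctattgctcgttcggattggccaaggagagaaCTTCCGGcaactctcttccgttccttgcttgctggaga
The shorter NRF1 word began at position -52 in Cox5b, and the GABP core lay on the opposite strand at position -38 in Atp5h. Letters of these motifs were not in the 100-base windows of Ndufa13 and Cox6b2. Among the members with windows, the NRF1 core was in 0 of 12 that fell, 0 of 3 that rose and 6 of 58 that were not called, counts too small to compare.

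Complex I, the complex with the most genes, had 6 genes that fell, 1 that rose and 29 not called among 36 tested. Its median log2 ratio was -0.32. The share called was 19.4%, against 25% of complex II, 11.1% of complex III, 16.7% of complex IV and 21.4% of complex V. Over all tested genes 12.9% were called, and 20.3% of those with a mean FPKM of 50 or more. The 7 nuclear core subunits of complex I carry the flavin and the iron-sulfur clusters. Of these, 0 fell, 1 rose and 6 were not called, with a summed FPKM in knockout cells at 93.6% of control. Ndufs1 (chromosome 1, 63143596 to 63176822), the large iron-sulfur subunit at the NADH end, rose to 29.7 FPKM in knockout cells, against 16.5 FPKM in control cells (log2 ratio 0.83, Cuffdiff q = 0.0176 in the authors' deposited table). The NADH- and flavin-binding Ndufv1 stood at 118 FPKM in knockout and 147 FPKM in control cells, and its iron-sulfur partner Ndufv2 at 104 FPKM in knockout and 72.1 FPKM in control cells. Neither was called. Ndufs3, Ndufs7 and Ndufs8 had log2 ratios of -0.62, -0.41 and -0.27 and were likewise not called.

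All 6 complex I genes that fell encode accessory subunits, which surround the core and stabilise it. Accessory subunits are 29 of the 36 complex I genes, so most calls would lie among them under an even spread. Of these 29, 6 fell, 0 rose and 23 were not called, and their sum in knockout cells was 67.1% of control. Over all tested genes 6.03% fell, and 13.5% of those with a mean FPKM of 50 or more. The 7 core genes are too few to compare. The grouping was made after the values were seen, and the difference between core and accessory subunits was not tested. Ndufa13 (locus entry on chromosome 8, 69887788 to 69903518), also known as GRIM-19, showed the largest called change of all members: it fell to 80.1 FPKM in knockout cells, against 412 FPKM in control cells, 19.4% of the control level (log2 ratio -2.36, Cuffdiff q = 0.0012 in the authors' deposited table). It shares its locus entry in the table with Tssk6 and Yjefn3, neither of which was called. Ndufc1, a small membrane subunit, fell to 73.5 FPKM in knockout cells, against 241 FPKM in control cells (log2 ratio -1.71, Cuffdiff q = 0.048 in the authors' deposited table).

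The other accessory genes that fell stayed nearer to their control levels. Ndufa7 had 238 FPKM in knockout and 480 FPKM in control cells (log2 ratio -1.01, Cuffdiff q = 0.0012 in the authors' deposited table). Ndufs6, a zinc-binding subunit needed late in assembly, had 130 FPKM in knockout and 257 FPKM in control cells (log2 ratio -0.98, Cuffdiff q = 0.00379 in the authors' deposited table). Ndufa12, which joins the NADH-oxidising arm, was the most abundant complex I transcript in control cells and had 547 FPKM in knockout and 946 FPKM in control cells (log2 ratio -0.79). Ndufb10, a subunit of the membrane arm, had 191 FPKM in knockout and 303 FPKM in control cells (log2 ratio -0.66). Their Cuffdiff q values were 0.00518 and 0.0343 in the authors' deposited table. Toward the other end lay Ndufab1, the mitochondrial acyl carrier protein, with 8.03 FPKM in knockout and 3.24 FPKM in control cells, and Ndufb5, with 56.1 FPKM in knockout and 32.7 FPKM in control cells; neither was called. Ndufs5 was listed at 0 in knockout and at 2.2 FPKM in control cells and was not called. Since a listed 0 may reflect an estimate that failed, no fold is given.

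Within complex I, transcripts of subunits of the same enzyme spanned from 2.2 to 946 FPKM in control cells. The lowest, Ndufs5, Ndufb4 (1.32 FPKM in knockout and 2.55 FPKM in control cells) and Ndufab1, encode subunits that every such cell uses. Genes with near-identical pseudogene copies can lose or share reads in the authors' counting, so low values of this kind are uncertain. RefSeq names pseudogenes of 10 members, 15 in all, counting only those whose symbol is the member's followed by ps or rs. Pseudogenes under other symbols were not searched, so members outside the 10 may have copies too. Ndufs5 and Ndufab1 are among the 10, as are Ndufa12 and Cox5b.

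**Figure D3:**
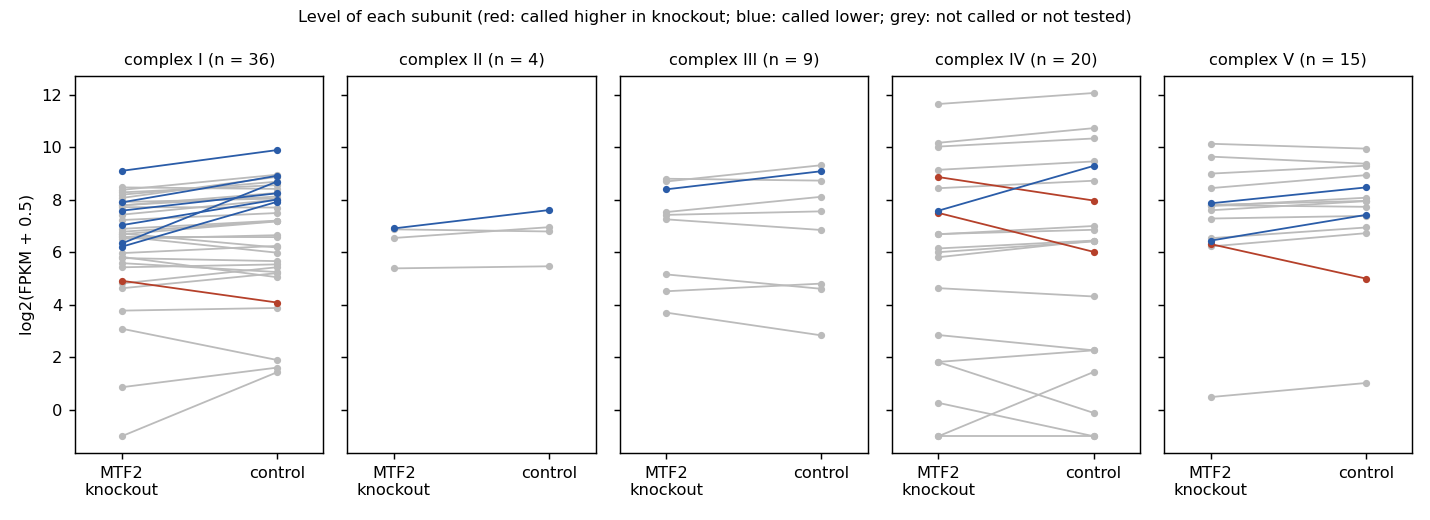
Level of each subunit as log2(FPKM + 0.5) in knockout (left) and control cells (right), 1 line per gene and 1 panel per complex. Lines are red where the gene was called higher in knockout, blue where lower and grey otherwise. Lower calls run through the upper part of the complex I panel, and the steepest red lines belong to Cox5b and Atp5h, whose control levels of 64.2 and 31.5 FPKM are below those of most of their partners.

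Complex II, succinate dehydrogenase, has only nuclear subunits, and of its 4 genes 1 fell, 0 rose and 3 were not called. Sdhb, the iron-sulfur subunit, fell to 119.6 FPKM in knockout cells, against 194 FPKM in control cells (log2 ratio -0.70, Cuffdiff q = 0.021 in the authors' deposited table). The flavoprotein Sdha, its catalytic partner, stood at 117 FPKM in knockout and 110 FPKM in control cells. The membrane anchors Sdhc (92.8 FPKM in knockout and 123 FPKM in control cells) and Sdhd (41.3 FPKM in knockout and 43.7 FPKM in control cells) were not called either. The complex median was -0.25, and no test of the difference between Sdhb and Sdha was made. Without Sdhb the log2 ratio of the summed FPKM was -0.15, against -0.35 with it.

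Complex III had 1 gene that fell, 0 that rose and 8 not called among 9 tested. Its median log2 ratio was -0.13, against -0.0035 over all tested genes. With FPKM rescaled to the same sum, which moves all genes up alike, it was 0.013, against 0.14 over all tested genes. Uqcr11, a small subunit, fell to 336 FPKM in knockout cells, against 542 FPKM in control cells (log2 ratio -0.69, Cuffdiff q = 0.0362 in the authors' deposited table). Uqcr10, another small subunit and the highest gene of the complex in control cells, had 413 FPKM in knockout and 635 FPKM in control cells, and Cyc1, which carries the haem that hands electrons to cytochrome c, had 184 FPKM in knockout and 276 FPKM in control cells. Both missed the threshold, with Cuffdiff q values of 0.0597 and 0.0563 in the authors' deposited table. The Rieske iron-sulfur protein gene Uqcrfs1 had 22.4 FPKM in knockout and 27.5 FPKM in control cells. At the upper end lay Uqcrb, with 12.5 FPKM in knockout and 6.65 FPKM in control cells, and the core protein gene Uqcrc2, with 35.2 FPKM in knockout and 23.9 FPKM in control cells, neither called.

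Complex IV, cytochrome c oxidase, had 1 gene that fell, 2 that rose and 15 not called among 18 tested, with a median log2 ratio of -0.31. Cox5b (chromosome 1, 36691484 to 36693681), a zinc-binding subunit on the matrix side, rose to 180 FPKM in knockout cells, against 64.2 FPKM in control cells, 2.81-fold higher (log2 ratio 1.48, Cuffdiff q = 0.0012 in the authors' deposited table). Its promoter stretch with the shorter NRF1 word is given above. A pseudogene of Cox5b is among those named in RefSeq, so its level is uncertain. Ndufa4, an outer subunit of the complex, rose to 464 FPKM in knockout cells, against 250 FPKM in control cells (log2 ratio 0.89, Cuffdiff q = 0.0236 in the authors' deposited table). Cox5a, which sits beside Cox5b in the enzyme, had 102 FPKM in knockout and 127 FPKM in control cells and was not called.

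Cox6b2 (chromosome 7, 4751792 to 4753094), the form of subunit 6b known from testis, fell to 191 FPKM in knockout cells, against 623 FPKM in control cells, 30.7% of the control level (log2 ratio -1.70, Cuffdiff q = 0.0012 in the authors' deposited table). Its general counterpart Cox6b1 was the most abundant of all members, with 3192 FPKM in knockout and 4268 FPKM in control cells, and was not called. Cox6b2 thus made up 5.65% of the summed FPKM of the pair in knockout and 12.7% in control cells. Of the 12 general subunits of complex IV, 9 had ratios below 0, among them Cox4i1 (1039 FPKM in knockout and 1285 FPKM in control cells) and Cox6a1 (1148 FPKM in knockout and 1688 FPKM in control cells). Cox4i1 lies in a merged locus entry of chromosome 8 that holds 74 genes, and its Cuffdiff q was 0.95 in the authors' deposited table.

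The other tissue-restricted forms were low. Cox4i2, known from lung, had 6.72 FPKM in knockout and 4.32 FPKM in control cells, and Ndufa4l2, known as a hypoxia-induced gene, had 3.05 FPKM in knockout and 4.32 FPKM in control cells. Cox8c, known from testis, had 3.03 FPKM in knockout and 0.425 FPKM in control cells. None of these was called. The muscle forms Cox6a2 (listed at 0 in knockout and at 2.22 FPKM in control cells) and Cox8b (0 in both groups), and Cox7b2 (0.706 FPKM in knockout and listed at 0 in control cells), were not called or not tested. Cox7a1, a further muscle form, was the exception in level, with 55.7 FPKM in knockout and 86.5 FPKM in control cells, and was not called. Its general counterpart Cox7a2 had 562 FPKM in knockout and 701 FPKM in control cells and was not called either. The related Cox7a2l, a factor that joins complexes III and IV, had 63.6 FPKM in knockout and 84.5 FPKM in control cells. Of the remaining general forms, Cox7b had 103 FPKM in knockout and 115 FPKM in control cells and Cox8a 346 FPKM in knockout and 422 FPKM in control cells, neither called. Ndufa4 held 99.3% of the summed FPKM of its pair in knockout and 98.3% in control cells.

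**Figure D4:**
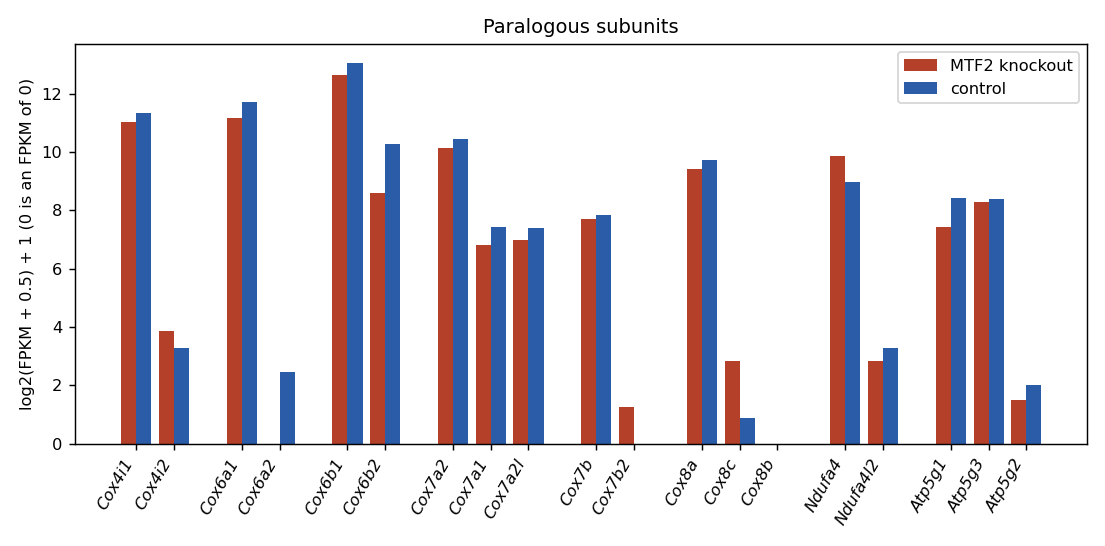
Paralogous subunits of complexes IV and V as log2(FPKM + 0.5) + 1, so that a bar of height 0 is an FPKM of 0. Knockout (red) stands left of control (blue). Cox6b2, Ndufa4 and Atp5g1 are the called genes, and in every complex IV set the general form is the highest in both groups.

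Complex V had 2 genes that fell, 1 that rose and 11 not called among 14 tested, with a median log2 ratio of -0.31. The catalytic head subunits Atp5a1 (797 FPKM in knockout and 661 FPKM in control cells) and Atp5b (1119 FPKM in knockout and 984 FPKM in control cells) had log2 ratios of 0.27 and 0.18, and neither was called. Together they summed to 1915 FPKM in knockout and 1644 FPKM in control cells. The summed FPKM of the complex, 92.7% of control, rests partly on these 2 genes. Atp5h (chromosome 11, 115415689 to 115419962), subunit d of the peripheral stalk that holds the head in place, rose to 78.9 FPKM in knockout cells, against 31.5 FPKM in control cells, 2.51-fold higher (log2 ratio 1.31, Cuffdiff q = 0.00657 in the authors' deposited table). Its stalk partners Atp5f1, Atp5j and Atp5o had log2 ratios of -0.41, -0.35 and -0.32 and were not called. Atp5d, the delta subunit of the central stalk, fell to 232 FPKM in knockout cells, against 353 FPKM in control cells (log2 ratio -0.60, Cuffdiff q = 0.0496 in the authors' deposited table).

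The proton-carrying c-ring is built from subunit c, which Atp5g1, Atp5g2 and Atp5g3 encode as the same mature protein with different import signals. Atp5g1 fell to 86.5 FPKM in knockout cells, against 171 FPKM in control cells (log2 ratio -0.98, Cuffdiff q = 0.00454 in the authors' deposited table). Atp5g3 had 155 FPKM in knockout and 167 FPKM in control cells and was not called, and Atp5g2, at 0.905 FPKM in knockout and 1.54 FPKM in control cells, was not tested. The 3 genes summed to 243 FPKM in knockout and 339 FPKM in control cells, and Atp5g1 held 35.7% of that sum in knockout and 50.4% in control cells. The membrane subunit genes Atp5j2, Atp5k and Atp5l had log2 ratios of -0.49, -0.30 and -0.50, none called.

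Among the 10 genes that match by letters without encoding a subunit, 1 of 9 tested fell and 0 rose. Ndufaf2, a complex I assembly factor related in sequence to Ndufa12, fell to 139 FPKM in knockout cells, against 223 FPKM in control cells (log2 ratio -0.68, Cuffdiff q = 0.0364 in the authors' deposited table). Ndufa12, described above, fell as well. Ndufaf8 had 39.1 FPKM in knockout and 68.3 FPKM in control cells and was not called. Ndufaf5, with 8.88 FPKM in knockout and 5.39 FPKM in control cells, and Ndufaf3, with 11.7 FPKM in knockout and 9.21 FPKM in control cells, had the highest ratios and were not called.

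**Figure D5:**
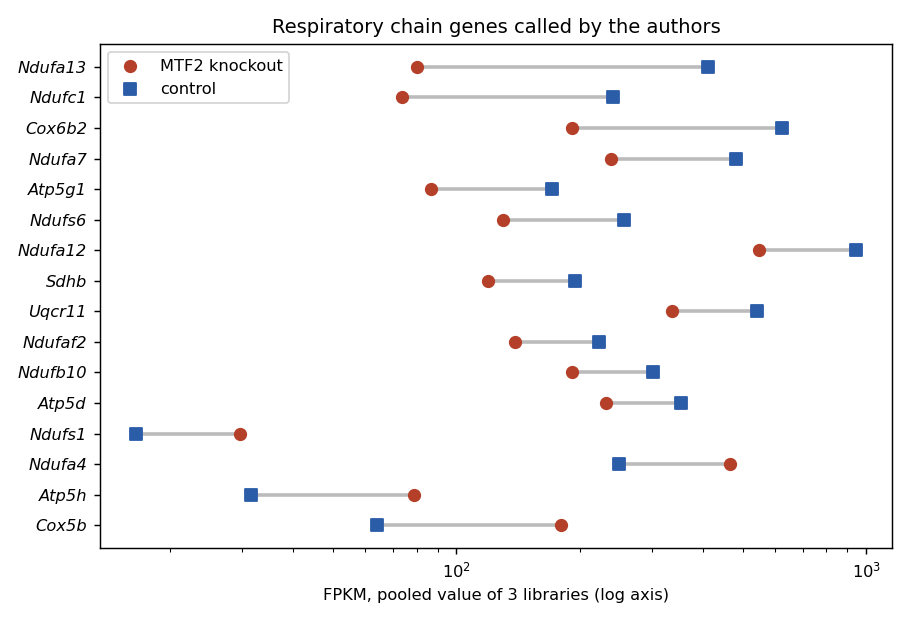
Pooled FPKM of the 16 members called by the authors in knockout (red circles) and control cells (blue squares), on a log axis. Genes run from the lowest log2 ratio at the top to the highest at the bottom. The gap is widest for Ndufa13 (80.1 FPKM in knockout and 412 FPKM in control cells), and the 4 genes at the foot, Ndufs1, Ndufa4, Atp5h and Cox5b, have the knockout value on the right.

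The subunits encoded by mitochondrial DNA lay on the other side of 0. Of 13 such genes listed by the authors, 7 were tested, 2 rose, 0 fell and 5 were not called, and all 7 had ratios above 0, with a median log2 ratio of 0.33. mt-Cytb, the cytochrome b of complex III, rose to 1032 FPKM in knockout cells, against 487 FPKM in control cells (log2 ratio 1.08, Cuffdiff q = 0.0012 in the authors' deposited table). mt-Co1, the catalytic subunit of complex IV, rose to 718 FPKM in knockout cells, against 406 FPKM in control cells (log2 ratio 0.82, Cuffdiff q = 0.00379 in the authors' deposited table). The complex I genes mt-Nd1, mt-Nd2, mt-Nd4, mt-Nd5 and mt-Nd6 were not called, and their log2 ratios ran between 0.10 and 0.56. Of these, mt-Nd5 and mt-Nd6 share a locus entry with each other, and mt-Nd4 shares its entry with mt-Nd4l. The other 6, mt-Co2 and mt-Co3 among them, were not tested and stood at or below 1.99 FPKM in both groups, although cells with a respiratory chain use them, so these values may not reflect their RNA. The 7 genes share 1 circular genome and its transcripts, so they are not independent, and their difference from the nuclear genes was not tested.

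Genes around the respiratory chain were mostly not called, as was the case for all tested genes. Over all tested genes 12.9% were called, 6.9% higher and 6.03% lower, and no list was tested against these shares. Among 26 assembly factors of complex IV, 2 fell, 0 rose and 24 were not called: Cox14 had 24.2 FPKM in knockout and 65.6 FPKM in control cells, and Cox11, a copper chaperone, had 22.5 FPKM in knockout and 61.6 FPKM in control cells. Sdhaf3, an assembly factor of complex II, fell to 3.65 FPKM in knockout cells, against 7.95 FPKM in control cells, as 1 of 4 tested, and Cuffdiff called 0 of 8 further complex I factors and 0 of 6 complex III factors (0 and 1 at an unadjusted p under 0.05). Of 19 genes of the citric acid cycle and pyruvate dehydrogenase, Dlst rose (90.3 FPKM in knockout and 44.5 FPKM in control cells), Mdh2 fell (135 FPKM in knockout and 240 FPKM in control cells) and 17 were not called. In the lists for coenzyme Q and cytochrome c and for mitochondrial DNA upkeep, Cuffdiff called 0 of 13 tested in each (0 in both lists at an unadjusted p under 0.05). At that p, in either direction, lay 7 of the 26 complex IV factors and 2 of the 4 complex II factors. So did 4 of the 19 genes of the citric acid cycle and pyruvate dehydrogenase. Of all tested genes, 13.0% lay there below a ratio of 0 and 12.7% above.

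Of 15 tested regulators of respiratory chain transcription, 2 rose, 1 fell and 12 were not called. Over all tested genes 6.9% rose and 6.03% fell. Yy1, whose core motif was searched in the promoters above, fell to 109.5 FPKM in knockout cells, against 179 FPKM in control cells (log2 ratio -0.71, Cuffdiff q = 0.0116 in the authors' deposited table). The YY1 core was in 2 of the 12 members that fell, 0 of the 3 that rose and 11 of the 58 not called. Nrf1 stood at 72.4 FPKM in knockout and 78.6 FPKM in control cells and Gabpa at 34.4 FPKM in knockout and 37.1 FPKM in control cells, neither called. Gabpb2, a partner of Gabpa, rose to 14.8 FPKM in knockout cells, against 8.79 FPKM in control cells, and Hif1a, the oxygen-regulated factor, rose to 50.3 FPKM in knockout cells, against 27.2 FPKM in control cells. Ppargc1a, a coactivator of mitochondrial genes in muscle and brown fat, was at 0.240 FPKM in knockout and 0.101 FPKM in control cells and was not tested.

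The members are spread over 19 chromosomes, and the called ones over 10. On chromosome 8 lie 3 members, of which Ndufa13 was called and Ndufb7 and Cox4i1 were not. The median log2 ratio of the 10 tested genes nearest to Ndufa13, 5 on each side, was -0.31, with 1 of the 10 called lower, against -2.36 for Ndufa13 itself. Over all 16 called members this median of neighbours lay between -0.52 and 0.44. It was below 0 for 10 of the 12 that fell and above 0 for 3 of the 4 that rose. The same count was not made for members that were not called, so no link between members and their neighbours can be read from it.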

How the data were processed

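The members and lists were chosen with earlier results of these data known. Poly(A) RNA libraries of MTF2 KO and Control cells (3 each) were analysed from 1 gene table. The authors deposited FPKM values with both groups' libraries already combined, a single value for each gene in each group, so depth per library is unknown. The submitters' processing notes name TopHat2 2.1.0, Cuffdiff 2.2.1.3, Bowtie 1.0, deepTools, mm9 and mm10, with no roles. The deposited log2 fold change, test score, p-value and q-value are the authors' own. Adjusting the deposited p-values of the 11362 genes with status OK by Benjamini-Hochberg returned the deposited q-values to within 5.2e-07.

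From these, log2 ratios with a pseudocount of 0.5, counts of calls, medians and sums were computed (Python 3.11.15, pandas 2.3.3), and tested on simulated data. No test across replicates was possible. Coordinates are those of the table with starts moved to 1-based, and all 94 members overlapped their RefSeq gene on GRCm38.p6 (mm10). Named genes were all called members, the 2 highest and 2 lowest ratios per complex, the highest control level per complex, paralogue sets, all Sdh genes and called genes of the lists, and others were named after their values were seen. The grouping of subunits by role was also made after the values were seen.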

Additional observations from a re-analysis of the deposited data

How the results depend on the processing

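No paired analysis was possible because the table holds 1 pooled value per group and no replicate columns, and for the same reason no library could be left out. Members called lower numbered 12, and 6 at a q of 0.01, 4 with a 2-fold minimum and 2 (Ndufa13 and Cox6b2) when a normal p was taken from the test score. Members called higher numbered 4, and 2, 2 and 0 under the same alternatives. The deposited unadjusted p was under 0.05 for 5 members above a ratio of 0 (5.56%) and 22 below (24.4%). The shares over all tested genes were 12.7% and 13.0%. Of the members with a mean FPKM of 50 or more, 3 lay above 0 (4.69%) and 21 below (32.8%) at that p. The shares over tested genes of that level were 10.0% and 25.3%. At a q of 0.01 the counts became 0 higher in complex I, 0 lower in complexes II and III, 1 higher in complex IV and 1 lower in complex V. With Ndufa4 counted by its symbol, complex I had 2 higher calls and complex IV 1. Rescaling FPKM to the same sum gave medians of -0.16 for all members, -0.18 for complex I, -0.10 for complex II, -0.16 for complexes IV and V and -0.20 for assembly factors and others, and 0.013 for complex III, where the median of all tested genes moved to 0.14 as well. Without its highest gene the log2 sum ratio of complex II was -0.15. The cause of the loss under the normal p, which left 124 calls over all tested genes, was not tested. Alternatives with mean FPKM of 50 or more, without genes listed at 0 and with subunits only (for medians) were chosen after seeing the data. Of 151 alternative values, 108 stayed within 1.5 times the count, 0.1 log2 of the median or on the same side of the threshold. Some of these settings could change little, so the 108 do not measure how firm the calls are. Adjusting p over tested genes with an FPKM of 1 or more gave 18 of them and left the q of every called member unchanged. Under the normal p, 14 of the 16 called members passed the threshold no longer.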

Other observations

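Several proteins of the respiratory chain have symbols outside the naming rule. 2010107E04Rik, a small membrane subunit of complex V that RefSeq names Atp5mpl, rose to 135 FPKM in knockout cells, against 26.3 FPKM in control cells (Cuffdiff q = 0.00657 in the authors' deposited table). Usmg5, named Atp5md in RefSeq, had 66.3 FPKM in knockout and 80.5 FPKM in control cells, and Atpif1, the inhibitor of the ATP synthase, had 1155 FPKM in knockout and 1138 FPKM in control cells, neither called. These belong to a list of 7 complex V factors and further subunits, of which 1 rose, 0 fell and 6 were not called. Cycs, the somatic cytochrome c gene, stood at 0.180 FPKM in knockout and 0.516 FPKM in control cells and was not tested, a low value for a protein the chain cannot work without. In 10 of the 13 members with a YY1 core in the promoter window, a match lay after the start, on the strand of the gene and between 11 and 45 bases from it. Ndufc1 and Ndufs6, which fell, are among the 10.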
